A study of Homo sapiens with 30 samples.

Results

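Metallothioneins are small cysteine-rich proteins that bind zinc and copper and buffer the free metal in the cell. The zinc-sensing transcription factor MTF1 binds metal response elements in the promoters of metallothionein genes and of SLC30A1, the zinc exporter of the plasma membrane, and raises their transcription when zinc is high. SLC39A10, a zinc importer, is repressed through MTF1 in mouse and zebrafish cells. The 9 genes described here are the metallothioneins MT2A, MT1X, MT1E, MT1F, MT1M and MT1G, the transporters SLC30A1 and SLC39A10, and MTF1 itself. They were chosen by symbol, as the metallothionein and zinc response genes among 60675 gene entries of the count table, and all 9 were found in it.

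The libraries came from SW1783, an established human astrocytoma line, cultured for 24 h with the 70% ethanol extract of a herbal decoction. Soshiho-tang and Yijin-tang were given at 500, 100 and 20 µg/mL with 3 libraries each, Okbyeongpung-san at the same concentrations with 2 libraries each, and Soyo-san with 1 library each. The 3 vehicle libraries came from cells given DMSO, at 0.1% in the sample labels and 2% in the series description. No label says that the libraries of a group were separate cultures, so the p-values measure only the spread between libraries, which may be technical. RNA was measured in bulk, so fewer cells with a transcript and less transcript per cell cannot be told apart.

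Levels are CPM (counts per M of a library total scaled by TMM), and fold changes are given on the log2 scale, each followed by ± its standard error (SE). A gene was called changed where the quasi-likelihood test of edgeR gave a Benjamini-Hochberg adjusted p under 0.05 over all genes. Library totals ran from 23.87 to 33.06 M estimated counts. By their library names the vehicle libraries form a set of their own, so effects of an extract against vehicle cannot be told apart from that set; they held 10.47% to 10.7% mitochondrial counts, and the 27 extract libraries between 5.68% and 10.61%. All vehicle, Soshiho-tang and Yijin-tang libraries are batch E in the titles, all Soyo-san libraries batch D, and each Okbyeongpung-san group has 1 library of each batch. Both concentrations of a contrast of 500 with 20 µg/mL belong to the same sets. The comparisons with vehicle all share its 3 libraries. Scaling shifts how the calls over all genes split, by unequal amounts between comparisons. Of the calls at 500 µg/mL against vehicle, 52% were higher for Soshiho-tang, 51.3% for Yijin-tang and 53.7% for Okbyeongpung-san with TMM, and 71%, 72.3% and 68% by library totals only. For 20 µg/mL against vehicle these shares were 51.8%, 53.5% and 52.7% with TMM and 74.4%, 70.2% and 71.2% by totals. Between 500 and 20 µg/mL they were 50.6% for Soshiho-tang and 47.8% for Yijin-tang with TMM, and 63.5% and 68.8% by totals, and in the difference of Okbyeongpung-san minus Soshiho-tang 57.3% and 43.4%.

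The glial markers GFAP, S100B, AQP4 and OLIG2 did not exceed 0.266 CPM, whereas the glutamate transporter SLC1A3 lay between 18.1 and 35.1 CPM and vimentin (VIM) between 3750 and 5590 CPM. SLC1A3, the 1 glial marker tested, fell with Soshiho-tang at 500 µg/mL by 0.79 against vehicle and 0.53 against 20 µg/mL on the log2 scale, and with Yijin-tang by 0.42 and 0.28. With Okbyeongpung-san it did not pass (-0.13 and -0.22). The summed glial markers had 18.6 to 20.6 CPM for Soshiho-tang, 23.4 to 25.8 CPM for Yijin-tang and 28.3 to 31.7 CPM for Okbyeongpung-san at 500 µg/mL, against 32 to 33.6 CPM in vehicle. Of 5 mesenchymal markers, all 5 fell with Soshiho-tang, 4 with Yijin-tang and 4 with Okbyeongpung-san at 500 µg/mL against vehicle, where 21.1%, 15.2% and 11.4% of all genes fell. In the contrast of 500 with 20 µg/mL, 5, 2 and 1 of them fell (medians -0.37, -0.11 and -0.33), where 14.2%, 2.94% and 5.1% of all genes fell. The summed CPM of these 5 was 10100 to 10800 for Soshiho-tang, 12200 to 13600 for Yijin-tang and 12000 to 12200 for Okbyeongpung-san, against 15900 to 16300 CPM in vehicle and, at 20 µg/mL, 13900 to 14900 CPM for Soshiho-tang, 13900 to 14600 CPM for Yijin-tang and 14600 CPM in both Okbyeongpung-san libraries. ALB and APOA1, markers of hepatocytes, in which metallothioneins are abundant, summed to at most 0.11 CPM in the 500 µg/mL groups and 0.0864 CPM in vehicle. The leukocyte markers CD68 and PTPRC lay at 122 to 245 CPM and 4.17 to 12.9 CPM. CD3E and the epithelial markers EPCAM and CDH1 did not exceed 0.288 CPM. With Soshiho-tang, Yijin-tang and Okbyeongpung-san alike, 1 of 2 tested leukocyte markers fell at 500 µg/mL against vehicle and 0 rose. Against 20 µg/mL 1 fell with each of them, and 1 rose with Soshiho-tang, where 14.6% of all genes rose. The part that the mitochondrial share and the marker genes have in the values below was not tested.

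The metallothionein genes lie in a cluster on chromosome 16 (GRCh38, GENCODE release 29). MT2A covers 56608199 to 56609497, MT1E 56625475 to 56627112, MT1M 56632233 to 56633986, MT1F 56657694 to 56660698 and MT1X 56682424 to 56684196 on the plus strand, and MT1G covers 56666731 to 56668065 on the minus strand. SLC30A1 lies on chromosome 1 at 211571568 to 211578742 and MTF1 at 37809567 to 37859620 of the same chromosome, both on the minus strand. SLC39A10 lies on chromosome 2 at 195575977 to 195737702, plus strand. Members of the cluster are paralogs that may share reads, which RSEM divides between genes by estimation. The counts of all 9 genes were whole numbers in all 30 libraries. Of the 4 annotated genes that overlap a member, none had more than 2 counts in any library.

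Promoter windows show how unequally the letters of the metal response element are spread over these genes. RefSeq windows from 250 bases before to 50 bases after the start (GRCh38.p14) were at hand for 5 of the 9 genes; MT1E, MT1F, MT1M and MT1G are not in that table. The windows of MT2A (chr16:56608334-56608633, plus strand), MT1X (chr16:56682220-56682519, plus strand) and SLC30A1 (chr1:211579112-211579411, minus strand) are printed. Those of SLC39A10, which also has calls described below, and MTF1 are not printed, and only their matches are counted. Capitals mark each match to TGCACNC or TGCGCNC, the core of the element, on either strand, and no matches overlap.
MT2A: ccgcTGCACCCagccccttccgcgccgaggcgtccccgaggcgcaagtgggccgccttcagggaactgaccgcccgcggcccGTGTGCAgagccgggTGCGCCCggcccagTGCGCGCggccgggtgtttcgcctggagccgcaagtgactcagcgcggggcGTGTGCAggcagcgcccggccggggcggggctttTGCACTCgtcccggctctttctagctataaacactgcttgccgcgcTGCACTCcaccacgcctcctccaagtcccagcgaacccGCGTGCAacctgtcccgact
MT1X: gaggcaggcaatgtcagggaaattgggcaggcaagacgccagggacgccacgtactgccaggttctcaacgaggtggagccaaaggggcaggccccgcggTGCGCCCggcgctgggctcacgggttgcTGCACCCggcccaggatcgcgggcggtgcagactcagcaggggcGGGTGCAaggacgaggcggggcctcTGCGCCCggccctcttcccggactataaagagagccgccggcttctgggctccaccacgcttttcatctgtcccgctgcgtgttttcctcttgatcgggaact
SLC30A1: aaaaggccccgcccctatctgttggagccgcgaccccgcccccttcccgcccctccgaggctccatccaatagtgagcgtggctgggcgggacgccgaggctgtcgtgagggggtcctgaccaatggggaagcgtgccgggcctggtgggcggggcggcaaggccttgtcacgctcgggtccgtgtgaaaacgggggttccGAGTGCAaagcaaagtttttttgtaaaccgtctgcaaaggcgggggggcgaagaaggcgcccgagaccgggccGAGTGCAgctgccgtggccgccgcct

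MT2A held 8 matches, 5 as printed and 3 on the reverse strand. MT1X held 4, of which 3 read as printed, and both matches of SLC30A1 lay on the reverse strand. The listed windows of SLC39A10 held 0 and 1 match, and that of MTF1 held 0. Of 35116 windows of this length in the table, 29.6% held at least 1 match, 0.6% at least 4 and 0.16% at least 5. A match describes letters only and is no measured site.

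MT2A made up nearly all metallothionein RNA in these cells. Its share of the summed CPM of the 6 metallothioneins was 88% to 92.76% across the 30 libraries, with 3.69% to 6.4% from MT1E and 3.44% to 6.2% from MT1X. MT1M (0 to 7 counts per library) and MT1G (0 to 3 counts) were too low to test, and MT1F, at 3 to 14 counts, passed the filter on low counts but was called in none of the 15 comparisons by edgeR, with its smallest unadjusted p at 0.0869. MT1G was at 0 in 17 libraries, including all 3 vehicle libraries, and had 2 and 3 counts with Okbyeongpung-san at 500 µg/mL, so no fold is given. Of 11 other metallothionein genes, 8 were at 0 in every library, MT3 reached 2 counts and MT1A 9, and only MT1L, listed as a pseudogene, could be tested.

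Okbyeongpung-san gave the highest MT2A levels. At 500 µg/mL MT2A stood at 293 and 349.7 CPM in the 2 libraries, against 134, 126 and 115 CPM in vehicle. Both extract libraries lay above the other 28 libraries of the series, the highest of which had 249 CPM. The log2 fold change was 1.38 ± 0.208 (SE; 2.6-fold; edgeR adjusted p = 0.00143). MT1X, a further metallothionein of the cluster, stood at 10.9 and 16 CPM with the extract, against 8.48, 7.18 and 6.35 CPM in vehicle, and rose by 0.89 ± 0.181 (edgeR adjusted p = 0.00646). MT1E stood at 11.7 and 14 CPM with the extract, against 8.35, 8.65 and 6.01 CPM in vehicle, and rose by 0.76 ± 0.225 (edgeR adjusted p = 0.0337). For both genes all extract libraries lay above all vehicle libraries. Extract replicate 3 is the batch D library, and without it MT2A stood 1.24 above vehicle on the log2 scale. Leaving out an Okbyeongpung-san library leaves 1 in its group, so the spread then comes from the other groups. The call of MT1X was lost without extract replicate 3 (0.57, edgeR adjusted p = 0.0538), and that of MT1E without any one of its 5 libraries (vehicle replicates 1, 2 and 3 and extract replicates 2 and 3; 0.60 to 0.87, edgeR adjusted p = 0.0591 to 0.165). Of the 7 members tested 4 rose and 0 fell, where 24.7% of all 16643 genes were called (13.3% higher and 11.4% lower), and the members' median log2 fold change was 0.50 beside 0.01 over all genes. The mitochondrial share was 5.68% to 6.8% at 500 µg/mL of this extract, against 8.04% to 8.45% at 100 µg/mL, 8.11% to 8.36% at 20 µg/mL and 10.47% to 10.7% in vehicle. Thus MT2A and the mitochondrial share both stood apart at 500 µg/mL, with no overlap with the other groups of this extract, and the part of that share in the MT2A level was not tested.

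Between 500 and 20 µg/mL of Okbyeongpung-san, MT2A, MT1X and SLC30A1 were higher in both batches without passing the test in the fit of this extract and vehicle. MT2A stood at 293 and 349.7 CPM at 500 µg/mL, against 150 and 249 CPM at 20 µg/mL, with no overlap between the concentrations. The log2 fold change of 0.68 ± 0.231 did not pass the edgeR test (adjusted p = 0.0928). The libraries numbered 2 are batch E and those numbered 3 batch D in the titles, and within them the log2 difference was 0.97 in batch E and 0.49 in batch D. With the replicate number as a block MT2A passed at 0.71 (edgeR adjusted p = 0.0338). That block also spans the vehicle libraries, all of batch E, so it is not a block by batch. Unblocked and without replicate 3 of the 20 µg/mL group, which leaves 1 library there, the difference was 1.10. MT1X had 10.9 and 16 CPM at 500 µg/mL and 8.48 and 10.5 CPM at 20 µg/mL (0.49 ± 0.194, edgeR adjusted p = 0.144), and MT1E, at 11.7 and 14 CPM against 9.82 and 15.5 CPM, overlapped (0.01 ± 0.237, edgeR adjusted p = 0.982). By edgeR 0 of 7 members were called where 10.3% of all genes were (5.21% higher and 5.1% lower). Of these members 3 had an unadjusted p under 0.05 (MT2A, MT1X and SLC30A1), and DESeq2 called 0, whereas 2 members passed with the block. In the 27-library fit, which adds Soshiho-tang and Yijin-tang, MT2A (0.69, edgeR adjusted p = 0.012), MT1X (0.50, edgeR adjusted p = 0.0327) and SLC30A1 (0.30, edgeR adjusted p = 0.0271) passed. That fit called 3082 of all genes, against 1716. At 100 µg/mL MT2A had 131 and 197 CPM, and between 100 and 20 µg/mL edgeR called 0 members and 0% of all genes, with 0 members at an unadjusted p under 0.05 and 0 by DESeq2. At 20 µg/mL against vehicle, MT2A (0.69 ± 0.209, edgeR adjusted p = 0.0981) and MT1E (0.75 ± 0.224, edgeR adjusted p = 0.0966) lay above every vehicle library without passing. The batch D library was the higher one, at 249 CPM for MT2A and 15.5 CPM for MT1E, against 150 and 9.82 CPM in batch E, and without it the differences were 0.28 (edgeR adjusted p = 0.434) and 0.37 (edgeR adjusted p = 0.393). In that comparison 0 members were called by edgeR beside 2.24% of all genes (1.18% higher and 1.06% lower), 3 had an unadjusted p under 0.05, and DESeq2 called 1. In the 27-library fit MT2A (0.67, edgeR adjusted p = 0.0119) and MT1E (0.73, edgeR adjusted p = 0.00953) passed, where 2162 of all genes were called, against 372.

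With Soshiho-tang, MT1X, MT2A and MT1E averaged higher at each higher concentration. MT2A averaged 149, 170 and 184 CPM and MT1E 9.91, 12.1 and 12.6 CPM at 20, 100 and 500 µg/mL. For MT2A and MT1E the libraries at 100 and 500 µg/mL overlapped. MT1X averaged 7.43 ± 0.562, 9.61 ± 0.424 and 11.3 ± 0.289 CPM at 20, 100 and 500 µg/mL (SD, n = 3 each). At 500 µg/mL its libraries had 11, 11.6 and 11.2 CPM, against 8.04, 6.93 and 7.33 CPM at 20 µg/mL and 8.48, 7.18 and 6.35 CPM in vehicle. All 3 libraries at 500 µg/mL lay above all 6 of the others, and the log2 fold change was 0.60 ± 0.111 against 20 µg/mL (edgeR adjusted p = 0.000261) and 0.62 ± 0.114 against vehicle (edgeR adjusted p = 0.000162). MT2A had 192, 189 and 171 CPM at 500 µg/mL, against 152, 122 and 174 CPM at 20 µg/mL, where the groups overlapped through the 20 µg/mL replicate 3. The difference was 0.30 ± 0.106 (edgeR adjusted p = 0.0364). Against vehicle MT2A rose by 0.56 ± 0.107 (edgeR adjusted p = 0.000235), with no overlap.

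MT1E with Soshiho-tang had 13.4, 12.9 and 11.5 CPM at 500 µg/mL, against 10, 8.39 and 11.3 CPM at 20 µg/mL. It rose by 0.35 ± 0.121 against 20 µg/mL (edgeR adjusted p = 0.0325) and by 0.71 ± 0.127 against vehicle (edgeR adjusted p = 0.000106), without overlap in either. The calls against 20 µg/mL of MT2A (0.17 to 0.32, edgeR adjusted p = 0.071 to 0.235) and MT1E (0.24 to 0.36, edgeR adjusted p = 0.066 to 0.191) were lost without replicate 1 or 2 of either concentration, and that of MT2A also when only these groups were fitted (0.29, edgeR adjusted p = 0.0548). The pseudogene MT1L averaged 1.18 CPM at 500 µg/mL, against 0.71 CPM in vehicle (0.72 ± 0.244, edgeR adjusted p = 0.0206); its call was lost by DESeq2, with only these groups fitted, without vehicle replicate 3 and without extract replicate 3 (0.40 to 0.72, adjusted p = 0.056 to 0.214). Of the 7 members tested, 4 rose and 1 fell against vehicle, where 43.9% of all 16872 genes were called (22.8% higher and 21.1% lower), with a median of 0.21 beside 0.01 over all genes. In the contrast with 20 µg/mL 3 rose and 1 fell, where 28.9% of all genes were called (14.6% higher and 14.2% lower), with a median of 0.03 beside 0.01. Between 100 and 20 µg/mL edgeR called 0 members and 0.0711% of all genes; MT1X (0.37 ± 0.114) and MT1E (0.30 ± 0.122) had an unadjusted p under 0.05, and DESeq2 called 0 members.

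With Yijin-tang, MT2A averaged higher at 20 and 100 µg/mL than at 500 µg/mL. MT2A averaged 187 ± 10.5, 195 ± 24.6 and 160 ± 12.7 CPM at 20, 100 and 500 µg/mL (SD, n = 3 each). At 20 µg/mL it had 177, 198 and 185 CPM, against 134, 126 and 115 CPM in vehicle (0.58 ± 0.108, edgeR adjusted p = 0.000768). At 500 µg/mL it had 146, 161 and 172 CPM, above every vehicle library (0.35 ± 0.108, edgeR adjusted p = 0.0154) and below every library at 20 µg/mL (-0.23 ± 0.106, edgeR adjusted p = 0.253). The call at 500 µg/mL against vehicle was lost without vehicle replicate 3 (0.30, edgeR adjusted p = 0.0797) and without extract replicate 3 (0.30, edgeR adjusted p = 0.0591).

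MT1E was the 1 member called between 500 and 20 µg/mL of Yijin-tang. It had 7.55, 8.17 and 8.26 CPM at 500 µg/mL, against 12.8, 13.7 and 12.1 CPM at 20 µg/mL. It fell by 0.69 ± 0.125 on the log2 scale (edgeR adjusted p = 0.0015), every library lay lower, and the call held without any single library. At 100 µg/mL MT1E had 14.5, 11.6 and 12 CPM, so the level at 500 µg/mL stood apart from both lower concentrations and overlapped with vehicle (0.05 ± 0.133, edgeR adjusted p = 0.8, 95% interval -0.22 to 0.33). At 20 µg/mL MT1E rose by 0.74 ± 0.128 against vehicle (edgeR adjusted p = 0.000429). MT1X had 8.8, 11.2 and 8.19 CPM at 500 µg/mL, against 9.03, 9.61 and 11.1 CPM at 20 µg/mL (-0.08 ± 0.111, edgeR adjusted p = 0.755) and 8.48, 7.18 and 6.35 CPM in vehicle (0.35 ± 0.116, edgeR adjusted p = 0.0249), overlapping with both. At 20 µg/mL MT1X rose by 0.44 ± 0.117 against vehicle (edgeR adjusted p = 0.0116). The call of MT1X at 500 µg/mL against vehicle was lost without vehicle replicates 2 or 3 or extract replicate 2 (0.21 to 0.34, edgeR adjusted p = 0.0738 to 0.178) and with only these groups fitted (0.36, edgeR adjusted p = 0.0843), and that at 20 µg/mL without replicate 3 of either group (0.35, edgeR adjusted p = 0.0744 and 0.0781). Against vehicle 3 of 7 members rose and 0 fell at 500 µg/mL, where 31.3% of all genes were called, 16% higher and 15.2% lower (median 0.05 beside 0.01 over all genes). Relative to 20 µg/mL 0 rose and 1 fell, where 5.64% were called, 2.7% higher and 2.94% lower (median -0.11 beside 0.00). At 20 µg/mL against vehicle 3 rose and 1 fell, where 19.8% were called (10.6% higher and 9.2% lower). Between 100 and 20 µg/mL edgeR called 0 members and 0.00593% of all genes, with 0 members at an unadjusted p under 0.05 and 0 by DESeq2.

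**Figure D1:**
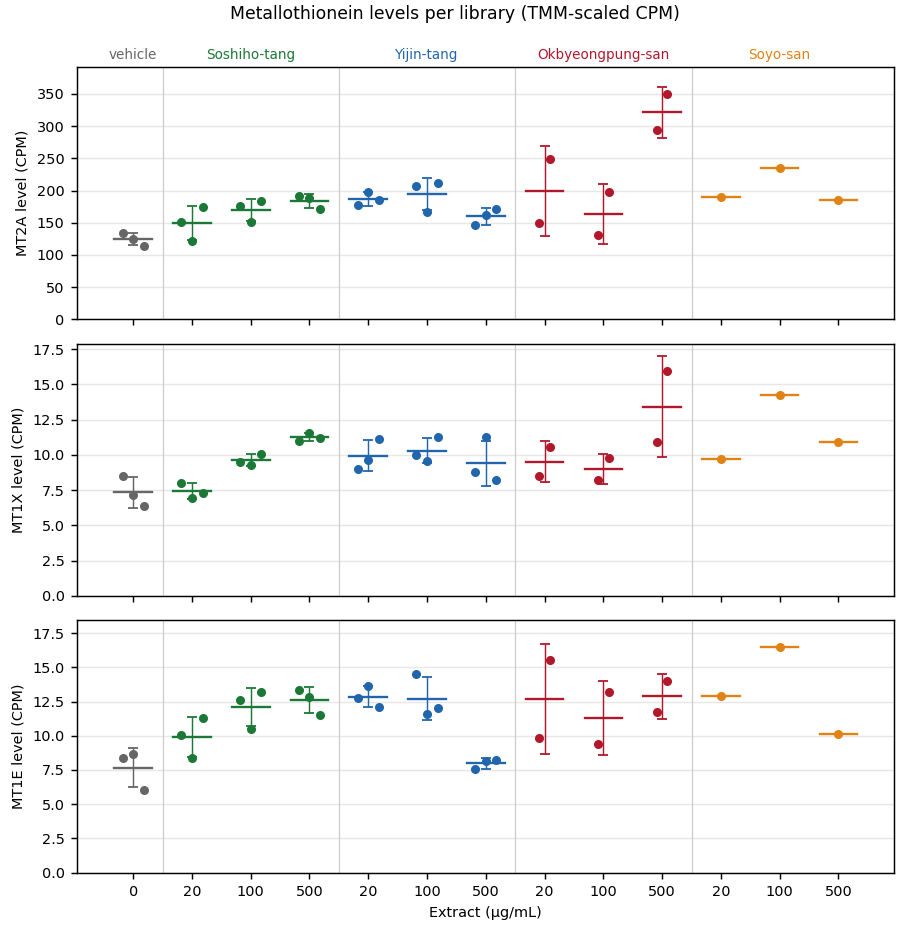
Levels of MT2A, MT1X and MT1E in TMM-scaled CPM (linear axes from 0) in each of the 30 libraries, by extract and concentration, with vehicle at 0 µg/mL; each point is a library, horizontal lines are group means and bars the SD. Both Okbyeongpung-san libraries at 500 µg/mL lie above all other MT2A points, and MT1E with Yijin-tang at 500 µg/mL lies at 7.55 to 8.26 CPM, among the vehicle points.

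Nearly all extract libraries lay above vehicle in metallothionein level. MT2A exceeded the highest vehicle library in 25 of 27 extract libraries, MT1E in 23 and MT1X in 22, and none lay below the lowest vehicle library. Among the 21 extract libraries of batch E, the batch of all vehicle libraries, these counts were 19, 17 and 16. How many of all genes lie this often above vehicle was not counted, and the vehicle libraries form a set of their own. At 500 µg/mL 22.8%, 16% and 13.3% of all genes were called higher than vehicle with Soshiho-tang, Yijin-tang and Okbyeongpung-san. The summed level of the 6 metallothioneins averaged 348 ± 45 CPM for Okbyeongpung-san (n = 2), 208 ± 12.2 CPM for Soshiho-tang and 178 ± 13 CPM for Yijin-tang, each at 500 µg/mL, against 140.3 ± 12.4 CPM in vehicle (SD, n = 3 each where not given). Between MT2A's highest group, Okbyeongpung-san at 500 µg/mL, and vehicle, its lowest, the group means of the other 11 groups ran from 149 to 234 CPM. Over the 13 group means, MT2A correlated with MT1X (Pearson r = 0.87), MT1E (0.71) and SLC30A1 (0.57), and hardly with SLC39A10 (-0.07), and with MTF1 at -0.39; the groups share library sets and the vehicle is 1 of the 13 points.

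SLC30A1, the exporter that carries zinc out of the cell, also had its highest group mean with Okbyeongpung-san at 500 µg/mL. It had 97.3 and 86.1 CPM there, against 79.3 and 70.2 CPM at 20 µg/mL and 62, 66.9 and 67.1 CPM in vehicle. There was no overlap with either. It rose by 0.50 ± 0.088 against vehicle (1.42-fold, edgeR adjusted p = 0.00298), a call that held without any single vehicle library. Without the batch D extract library, which leaves 1 library in that group, the difference was 0.58. Against 20 µg/mL the difference was 0.29 ± 0.096 (edgeR adjusted p = 0.0869), 0.30 within batch E and 0.29 within batch D. It passed with the replicate number as a block (0.29, edgeR adjusted p = 0.0472) and in the 27-library fit (0.30, edgeR adjusted p = 0.0271).

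With Soshiho-tang SLC30A1 was above vehicle at both ends of the range. It had 73.7, 75.4 and 77 CPM at 500 µg/mL, against 82.2, 87.7 and 72.4 CPM at 20 µg/mL, and the concentrations overlapped (-0.10 ± 0.07, edgeR adjusted p = 0.306). All of these libraries lay above vehicle, with 0.21 ± 0.071 at 500 µg/mL (edgeR adjusted p = 0.0227) and 0.31 ± 0.071 at 20 µg/mL (edgeR adjusted p = 0.00371). SLC30A1 was the only 1 of 7 members called at 20 µg/mL against vehicle, where 21.8% of all genes were called (11.3% higher and 10.5% lower). DESeq2 called 2. At that concentration MT2A passed without extract replicate 2 (0.39, edgeR adjusted p = 0.0114), and MT1E without vehicle replicate 2 or extract replicate 2 (0.46 to 0.47, edgeR adjusted p = 0.0192 to 0.0381). The SLC30A1 call at 500 µg/mL was lost without vehicle replicate 1 or extract replicate 2 or 3 (0.17 to 0.21, edgeR adjusted p = 0.0508 to 0.0938). With Yijin-tang SLC30A1 had 68.9, 69.4 and 61.2 CPM at 500 µg/mL, against 70.8, 68.7 and 75.5 CPM at 20 µg/mL. These overlapped with each other (-0.11 ± 0.071, edgeR adjusted p = 0.448), and the 500 µg/mL libraries overlapped with vehicle (0.03 ± 0.071, edgeR adjusted p = 0.826).

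SLC39A10, the importer, was lower with Soshiho-tang at 500 µg/mL. It had 41.8, 39.3 and 38.8 CPM at 500 µg/mL, against 48.2, 47.8 and 45.5 CPM at 20 µg/mL and 41.9, 46.5 and 49.8 CPM in vehicle. With TMM every library at 500 µg/mL was lower than every library of both other groups, against vehicle narrowly (41.8 against 41.9 CPM). By library totals only the 500 µg/mL libraries overlapped with vehicle (40.5 to 43 against 40.2 to 47.9 CPM). SLC39A10 fell by 0.24 ± 0.067 on the log2 scale against 20 µg/mL (edgeR adjusted p = 0.0107) and by 0.20 ± 0.068 against vehicle (edgeR adjusted p = 0.0199). Scaled by library totals only, neither passed (-0.19, edgeR adjusted p = 0.0553, and -0.09, edgeR adjusted p = 0.34); in the comparison with vehicle that scaling put the median of all genes at 0.12, where TMM put it at 0.01. The call against vehicle was also lost without vehicle replicate 2 or 3 or extract replicate 2 or 3 (-0.19 to -0.14, edgeR adjusted p = 0.0565 to 0.134).

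With Yijin-tang SLC39A10 had 54, 51.4 and 51.3 CPM at 500 µg/mL, against 47.2, 46.8 and 44.6 CPM at 20 µg/mL, and all lay higher (0.17 ± 0.067, edgeR adjusted p = 0.143). Against vehicle it rose by 0.18 ± 0.067 (edgeR adjusted p = 0.0439). That call was lost with only these groups fitted (0.19, edgeR adjusted p = 0.0649) and without vehicle replicate 1 or 2 or any 1 of the extract replicates 1, 2 and 3 (0.12 to 0.20, edgeR adjusted p = 0.0537 to 0.211). With Okbyeongpung-san SLC39A10 had 47.4 and 44.4 CPM at 500 µg/mL, against 53.4 and 44 CPM at 20 µg/mL (-0.09 ± 0.117, edgeR adjusted p = 0.686) and overlapped with vehicle (0.01 ± 0.107, edgeR adjusted p = 0.969, 95% interval -0.23 to 0.25).

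MTF1, the zinc-sensing factor, was called higher in none of the 15 comparisons. It had 31.6 and 35 CPM with Okbyeongpung-san, 33.9, 36.3 and 37.3 CPM for Soshiho-tang and 35.9, 32.4 and 33.4 CPM for Yijin-tang at 500 µg/mL, against 34.5, 38.7 and 43.3 CPM in vehicle. All 3 groups overlapped with vehicle. The log2 fold changes were -0.21 ± 0.116 (edgeR adjusted p = 0.22), -0.12 ± 0.076 (edgeR adjusted p = 0.23) and -0.19 ± 0.076 (edgeR adjusted p = 0.0587) in the same order. MTF1 passed once, lower with Yijin-tang at 20 µg/mL than in vehicle (-0.25 ± 0.077, edgeR adjusted p = 0.0284). That call was lost without vehicle replicate 2 or 3 or any 1 of the extract replicates 1, 2 and 3 (-0.26 to -0.16, edgeR adjusted p = 0.0525 to 0.19) and by library totals only (-0.21, edgeR adjusted p = 0.0852). Without vehicle replicate 1 MTF1 passed as lower with Soshiho-tang at 500 µg/mL (-0.19, edgeR adjusted p = 0.0474) and at 20 µg/mL (-0.23, edgeR adjusted p = 0.0446), and without vehicle replicate 1 or extract replicate 1 with Yijin-tang at 500 µg/mL (-0.27 and -0.24, edgeR adjusted p = 0.0114 and 0.0426). None of the 27 extract libraries exceeded the highest vehicle library, and 17 lay below the lowest. How many of all genes lie this often below vehicle was not counted, and the vehicle libraries form a set of their own. MTF1 did not pass between 500 and 20 µg/mL of any extract, with log2 fold changes of 0.03 for Soshiho-tang, 0.05 for Yijin-tang and -0.12 for Okbyeongpung-san.

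**Figure D2:**
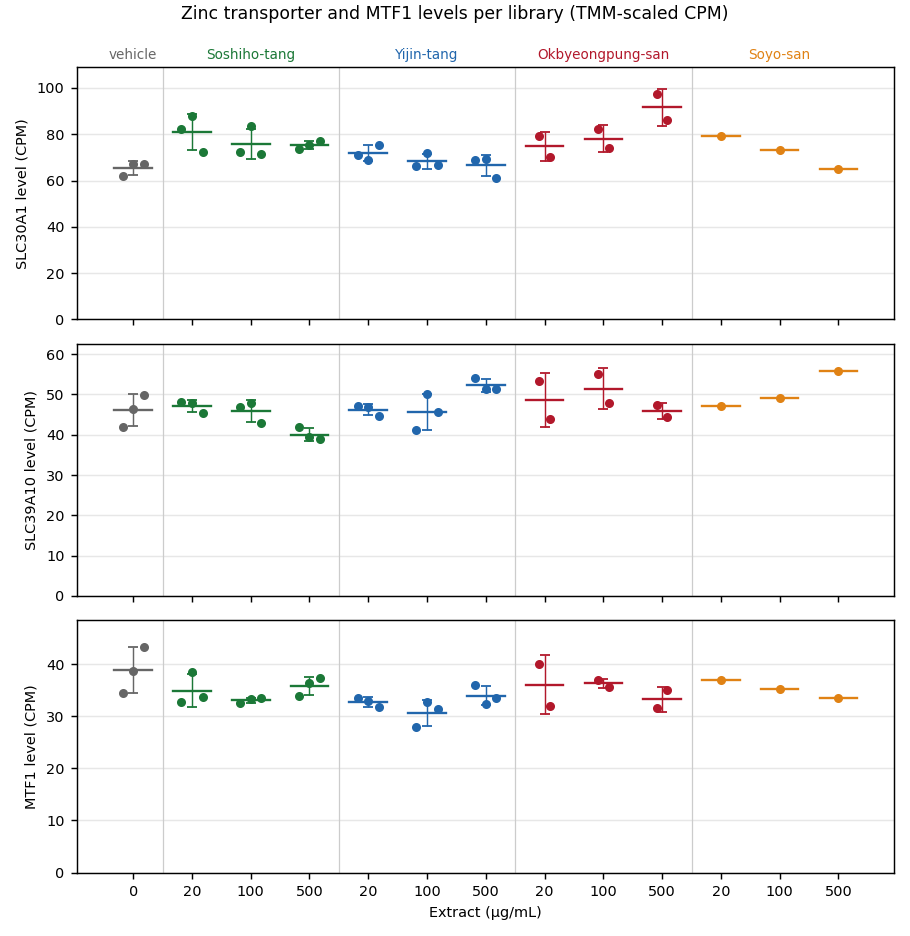
Levels of SLC30A1, SLC39A10 and MTF1 in TMM-scaled CPM (linear axes from 0) in each of the 30 libraries, by extract and concentration, with vehicle at 0 µg/mL; each point is a library, horizontal lines are group means and bars the SD. SLC30A1 is highest with Okbyeongpung-san at 500 µg/mL (97.3 and 86.1 CPM), and SLC39A10 lies at 38.8 to 41.8 CPM with Soshiho-tang at 500 µg/mL, below its libraries at 20 µg/mL.

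**Figure D3:**
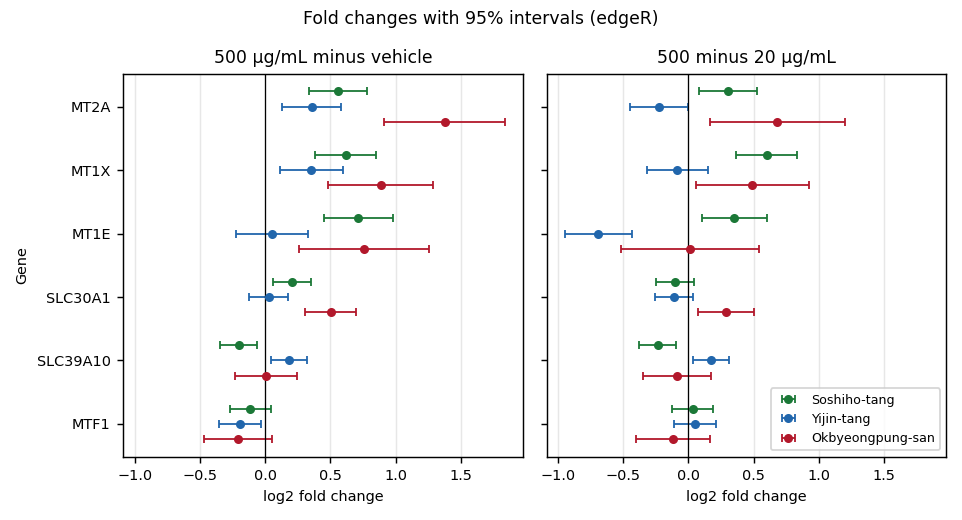
Log2 fold changes of 6 members from edgeR with 95% intervals, 500 µg/mL minus vehicle on the left and 500 minus 20 µg/mL on the right, for Soshiho-tang (n = 3), Yijin-tang (n = 3) and Okbyeongpung-san (n = 2). Against 20 µg/mL, MT1E is at 0.35 with Soshiho-tang and -0.69 with Yijin-tang, and the interval of MT2A with Okbyeongpung-san is the widest of the MT2A intervals.

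Soshiho-tang and Yijin-tang shared library sets, and the difference between their responses to concentration was tested directly as an interaction. The change from 20 to 500 µg/mL was higher with Soshiho-tang than with Yijin-tang for MT1E (by 1.04 ± 0.174, edgeR adjusted p = 0.000191), MT1X (0.69 ± 0.157, edgeR adjusted p = 0.00436) and MT2A (0.53 ± 0.151, edgeR adjusted p = 0.0201), and lower for SLC39A10 (-0.41 ± 0.095, edgeR adjusted p = 0.00446). So 3 of 7 members were higher and 1 lower, where 13.6% of all genes were called (6.63% higher and 6.99% lower). The call of MT2A was lost without replicate 1 of either extract at 500 µg/mL or replicate 2 of either at 20 µg/mL (0.40 to 0.50, edgeR adjusted p = 0.0518 to 0.0592). At 500 µg/mL alone, Soshiho-tang against Yijin-tang, MT1E had 13.4, 12.9 and 11.5 CPM against 7.55, 8.17 and 8.26 CPM (0.66 ± 0.124, edgeR adjusted p = 0.00032), and SLC39A10 had 41.8, 39.3 and 38.8 CPM against 54, 51.4 and 51.3 CPM (-0.39 ± 0.067, edgeR adjusted p = 0.000142). Neither gene's groups overlapped. MT2A (0.20 ± 0.106, 95% interval -0.02 to 0.43) and MT1X (0.26 ± 0.109, edgeR adjusted p = 0.0827) did not pass, MT1X doing so without Yijin-tang replicate 2 (0.40, edgeR adjusted p = 0.00908). In that comparison 1 member was higher and 1 lower, where 25.2% of all genes were called (12.5% higher and 12.8% lower).

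The change from 20 to 500 µg/mL of SLC30A1 was higher with Okbyeongpung-san than with Soshiho-tang (by 0.40 ± 0.119, edgeR adjusted p = 0.042), the 1 of 7 members called where 7.43% of all genes were (4.25% higher and 3.17% lower). This call was lost without Okbyeongpung-san replicate 2 at 500 or replicate 3 at 20 µg/mL, without Soshiho-tang replicates 1, 2 or 3 at 500 µg/mL or replicates 1 or 2 at 20 µg/mL (0.31 to 0.41, edgeR adjusted p = 0.0604 to 0.215), by library totals only (0.37, edgeR adjusted p = 0.12) and with only these groups fitted (0.40, edgeR adjusted p = 0.106). For MT2A the difference was 0.39 ± 0.243 (edgeR adjusted p = 0.383, 95% interval -0.11 to 0.89). It was 0.81 without Okbyeongpung-san replicate 3 at 20 µg/mL, which leaves 1 library in that group.

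Of 6 tested zinc exporters of the SLC30 family, 4 rose and 0 fell with Soshiho-tang, 2 and 0 with Yijin-tang, and 3 and 0 with Okbyeongpung-san at 500 µg/mL against vehicle (median log2 fold changes 0.18, 0.02 and 0.22), where 43.9%, 31.3% and 24.7% of all genes were called. The count for Yijin-tang is near that share. For the contrast with 20 µg/mL the counts were 1 and 0, 0 and 0, and 0 and 0 (medians 0.05, 0.01 and 0.08), where 28.9%, 5.64% and 10.3% of all genes were called. SLC30A6, which pairs with SLC30A5 to carry zinc into the early secretory pathway, rose with all 3 extracts against vehicle, by 0.26 ± 0.057 with Soshiho-tang, 0.25 ± 0.057 with Yijin-tang and 0.49 ± 0.073 with Okbyeongpung-san. Its relative SLC30A7 rose with Soshiho-tang (0.22 ± 0.056) and Okbyeongpung-san (0.38 ± 0.088), the Okbyeongpung-san call being lost without vehicle replicate 1 or extract replicate 2 (0.31 to 0.33, edgeR adjusted p = 0.0514 to 0.093). SLC30A4 rose with Soshiho-tang by 0.31 ± 0.085 against vehicle and 0.27 ± 0.083 against 20 µg/mL (edgeR adjusted p = 0.0155), the last call being lost without replicate 3 of either concentration or the 20 µg/mL replicate 1 (0.22 to 0.25, edgeR adjusted p = 0.065 to 0.0893). SLC30A9 rose with Yijin-tang (0.21 ± 0.046), and SLC30A5 with Okbyeongpung-san (0.25 ± 0.074, edgeR adjusted p = 0.0335). The SLC30A5 call was lost without any vehicle replicate (1, 2 or 3) or extract replicate 2, with the block and without a filter (0.17 to 0.26, edgeR adjusted p = 0.0553 to 0.229).

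Zinc importers of the SLC39 family were called about as often as all genes with Soshiho-tang and Okbyeongpung-san against vehicle. Of 10 tested, 2 rose and 2 fell with Soshiho-tang, 2 and 3 with Yijin-tang, and 2 and 0 with Okbyeongpung-san against vehicle (medians 0.04, 0.01 and 0.11), where 43.9%, 31.3% and 24.7% of all genes were called. Against 20 µg/mL the counts were 2 and 1, 0 and 1, and 1 and 0 (medians -0.02, 0.01 and 0.13), where 28.9%, 5.64% and 10.3% of all genes were called. SLC39A14, which carries zinc, iron and manganese, averaged 198 CPM at 500 µg/mL of Soshiho-tang and 139 CPM at 500 µg/mL of Yijin-tang, against 173 CPM in vehicle. It rose with Soshiho-tang by 0.19 ± 0.069 and fell by 0.32 ± 0.069 with Yijin-tang, and the first call was lost without vehicle replicate 1 or 2 or extract replicate 2 or 3 (0.17 to 0.19, edgeR adjusted p = 0.0584 to 0.0885). Against 20 µg/mL of Soshiho-tang it rose by 0.24 ± 0.068, lost without the 20 µg/mL replicate 3 (0.17, edgeR adjusted p = 0.0736). SLC39A8, an importer of the same metals, rose with Yijin-tang (0.36 ± 0.079) and Okbyeongpung-san (0.38 ± 0.086) against vehicle and fell by 0.28 ± 0.078 with Soshiho-tang against 20 µg/mL; the second was lost without Okbyeongpung-san replicate 3 (0.28, edgeR adjusted p = 0.067). SLC39A11 rose against 20 µg/mL with Soshiho-tang (0.31 ± 0.082) and Okbyeongpung-san (0.48 ± 0.086, lost with only these groups fitted at edgeR adjusted p = 0.0615), and with Okbyeongpung-san against vehicle (0.37 ± 0.079). SLC39A13 fell by 0.36 ± 0.053 with Yijin-tang and 0.19 ± 0.053 with Soshiho-tang against vehicle, and SLC39A1 fell by 0.25 ± 0.053 with Soshiho-tang. By library totals only the Soshiho-tang calls of both were lost (-0.08, edgeR adjusted p = 0.286, and -0.13, edgeR adjusted p = 0.103), that of SLC39A13 also without vehicle replicate 1 (-0.12, edgeR adjusted p = 0.0704). The fall of SLC39A13 by 0.19 ± 0.053 between 500 and 20 µg/mL of Yijin-tang (edgeR adjusted p = 0.0409) was lost in 8 of 12 alternatives, including without replicates 1, 2 and 3 at 500 µg/mL and replicates 1 and 2 at 20 µg/mL (-0.20 to -0.15, edgeR adjusted p = 0.0793 to 0.163).

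Copper handling genes, of which 10 of 11 matched and were tested, were called about as often as all genes at 500 µg/mL against vehicle. With Soshiho-tang 5 rose and 0 fell, with Yijin-tang 3 and 0 and with Okbyeongpung-san 2 and 0 against vehicle (medians 0.16, 0.13 and 0.21), where 43.9%, 31.3% and 24.7% of all genes were called, 22.8%, 16% and 13.3% as higher. Relative to 20 µg/mL 3 rose and 1 fell, 0 and 0, and 2 and 0 (medians 0.17, 0.04 and 0.08), where 28.9%, 5.64% and 10.3% of all genes were called. COX17, which delivers copper to cytochrome oxidase, rose by 0.66 ± 0.128 with Soshiho-tang, 0.66 ± 0.128 with Yijin-tang and 0.93 ± 0.243 with Okbyeongpung-san against vehicle, the last lost without vehicle replicate 2 or 3 or either extract library (replicates 2 and 3; 0.83 to 0.99, edgeR adjusted p = 0.0613 to 0.0902). With Soshiho-tang against 20 µg/mL COX17 rose by 0.34 ± 0.122, lost without replicate 1 or 2 of either concentration (0.26 to 0.33, edgeR adjusted p = 0.102 to 0.176). ATOX1, a copper chaperone, rose by 0.53 ± 0.086 with Soshiho-tang and 0.47 ± 0.086 with Yijin-tang. SLC31A2, a copper transporter, rose with Soshiho-tang by 0.34 ± 0.1 against vehicle and 0.57 ± 0.099 against 20 µg/mL. ATP7A, a copper exporter, fell by 0.21 ± 0.071 with Soshiho-tang against 20 µg/mL, lost by library totals only and without replicate 1 at 20, replicate 2 of either or replicate 3 at 500 µg/mL (-0.23 to -0.16, edgeR adjusted p = 0.05 to 0.159). SOD1, the copper and zinc superoxide dismutase, averaged 166 CPM with Okbyeongpung-san at 500 µg/mL, against 96.9 CPM at 20 µg/mL and 101 CPM in vehicle. It rose by 0.77 ± 0.181 against 20 µg/mL and by 0.72 ± 0.163 against vehicle (edgeR adjusted p = 0.0242 and 0.0102). The calls were lost without the extract's replicate 2 at 500 µg/mL (0.65 relative to vehicle, edgeR adjusted p = 0.0754), and against 20 µg/mL also without replicate 2 at 20 µg/mL (0.59 to 0.71, edgeR adjusted p = 0.116 to 0.16). SOD1 rose by 0.19 ± 0.067 with Yijin-tang against vehicle, lost without vehicle replicate 2 or 3, extract replicate 1 or 2 or with only these groups fitted (0.13 to 0.20, edgeR adjusted p = 0.0522 to 0.202). CCS, the chaperone that loads SOD1, rose by 0.60 ± 0.166 with Okbyeongpung-san against 20 µg/mL (edgeR adjusted p = 0.0485), lost without replicate 2 of either concentration, replicate 3 at 500 µg/mL or with only these groups fitted (0.37 to 0.63, edgeR adjusted p = 0.119 to 0.247).

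Of the genes reported as MTF1 targets in mouse 5 were tested. Of these, 1 rose and 3 fell with Soshiho-tang, 1 and 0 with Yijin-tang, and 2 and 1 with Okbyeongpung-san against vehicle (medians -0.25, -0.09 and 0.18), where 43.9%, 31.3% and 24.7% of all genes were called. Against 20 µg/mL the counts were 2 and 2, 0 and 0, and 2 and 0 (medians 0.05, 0.01 and 0.58), where 28.9%, 5.64% and 10.3% of all genes were called. GCLC, the catalytic subunit of the enzyme that starts glutathione synthesis, rose by 1.01 ± 0.046 with Soshiho-tang, 0.33 ± 0.047 with Yijin-tang and 0.96 ± 0.071 with Okbyeongpung-san against vehicle, and by 0.76 ± 0.045 with Soshiho-tang and 0.58 ± 0.077 with Okbyeongpung-san against 20 µg/mL. NDRG1 rose with Okbyeongpung-san by 1.36 ± 0.068 against vehicle and 1.45 ± 0.077 against 20 µg/mL. SELENOW, a small selenoprotein, fell by 0.79 ± 0.08 with Soshiho-tang against vehicle and 0.57 ± 0.079 against 20 µg/mL. CSRP1, a LIM domain protein, fell by 0.31 ± 0.048 and 0.23 ± 0.048 in the same comparisons. With Okbyeongpung-san CSRP1 fell by 0.28 ± 0.09 against vehicle (edgeR adjusted p = 0.0436), lost by library totals only, with the block, and without vehicle replicate 1, 2 or 3 or extract replicate 2 (-0.31 to -0.17, edgeR adjusted p = 0.0577 to 0.236).

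**Figure D4:**
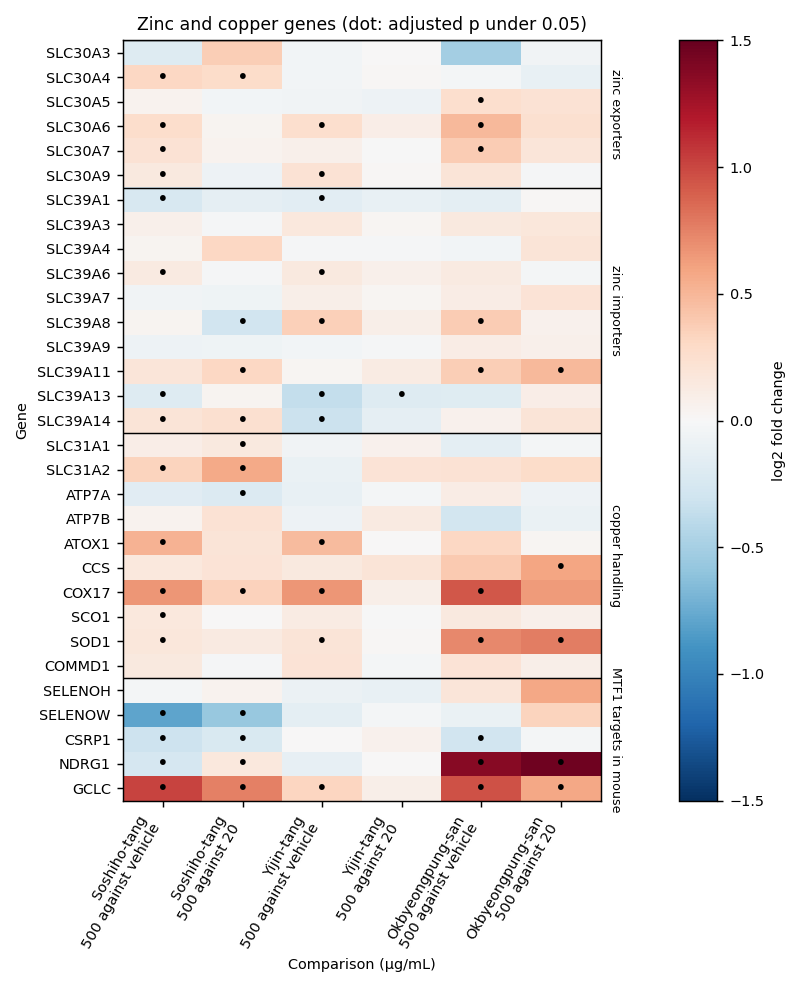
Log2 fold changes from edgeR of 31 tested genes of zinc export, zinc import, copper handling and mouse MTF1 target lists (rows) in 6 comparisons of 500 µg/mL (columns); red is higher and blue lower at 500 µg/mL, and a dot marks an adjusted p under 0.05. The strongest red is NDRG1 with Okbyeongpung-san (1.36 and 1.45), and SELENOW with Soshiho-tang is blue (-0.79 and -0.57).

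Soyo-san, with 1 library per concentration, could not be tested. MT2A stood at 190.1, 234 and 186 CPM at 20, 100 and 500 µg/mL (exact Poisson 95% intervals 185 to 195, 229 to 240 and 181 to 191 CPM, which cover counting error only), against 134, 126 and 115 CPM in vehicle. All 3 Soyo-san libraries were higher than all vehicle libraries, and the 100 µg/mL library was the highest. They are batch D and the vehicle libraries batch E, so extract and batch cannot be told apart here. The batch D libraries of Okbyeongpung-san also had more MT2A than the batch E ones, at 249 against 150 CPM at 20 µg/mL, 197 against 131 CPM at 100 µg/mL and 349.7 against 293 CPM at 500 µg/mL. MT1E showed the same order at 12.9, 16.5 and 10.2 CPM, and MT1X had 9.73, 14.2 and 10.9 CPM. SLC30A1 had 79.4, 73.4 and 65.1 CPM at 20, 100 and 500 µg/mL, and SLC39A10 had 47.2, 49.2 and 55.9 CPM.

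The genes whose levels over the 13 group means were most like the summed metallothioneins, among 9785 genes of at least 10 CPM on average, were TUSC3 (Pearson r = 0.87), ATP6V0E1 (0.87), GHITM (0.86), FAM104A (0.86) and JKAMP (0.86). All 5 were highest with Okbyeongpung-san at 500 µg/mL and lowest in vehicle. The summed metallothioneins had the same highest and lowest group. Choosing genes by likeness to that sum favours this order, so it is no separate result. ATP6V0E1, a subunit of the vacuolar proton pump, averaged 195 CPM with Okbyeongpung-san at 500 µg/mL, against 110 CPM in vehicle. GHITM, a protein of the inner mitochondrial membrane, averaged 219 CPM, against 132 CPM in vehicle.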

How the data were processed

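RNA sequencing libraries of 30 samples were analysed. The authors deposited estimated counts (expected counts) per Ensembl gene, made with RSEM 1.3.3 after STAR 2.7.3a, Trim Galore 0.6.5 and FastQC 0.11.9, per the submitters' processing notes, which name hg38 and GRCh38. The annotation and strand setting of the counting are not given in the sources used here. Libraries were directional, per the labels' protocols. Values not whole made up 10.6% to 10.73% of the vehicle columns and 9.24% to 10.09% of the others. The table also has 30 blank columns. Totals of 23.87 to 33.06 M counts set the precision, which limits the low members.

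Counts were rounded to whole numbers. Genes were filtered with filterByExpr (minimum count 10, minimum total 15), scaled by TMM and compared by quasi-likelihood in edgeR 4.0.16 (R 4.3.3, limma 3.58.1), with p-values adjusted over all genes and a threshold of 0.05. Vehicle, Soshiho-tang and Yijin-tang shared a fit of 21 libraries, Okbyeongpung-san and vehicle a fit of 9, and the Okbyeongpung-san against Soshiho-tang difference a fit of 27. Soyo-san was described only. Groups came from the titles.

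Members, lists and rules were chosen with earlier results of these data known. All 9 members were named, every tested gene of the other metallothioneins, up to 3 changed genes of the largest fold change per further list in each comparison of 500 µg/mL, and the 5 genes most like the summed metallothioneins on log2(group mean CPM + 0.5). Libraries were compared by deviations from group means: same-numbered libraries correlated at -0.16 to 0.09 outside Okbyeongpung-san, whose pairs share a batch in the titles (0.1 between 500 and 20 µg/mL and 0.28 between 100 and 20 µg/mL, 1 value each because deviations within a group of 2 mirror each other). Alternatives were other scalings, no filter, DESeq2 1.42.0, the compared groups alone, the replicate block and leaving out each library. Promoter sequences are RefSeq windows.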

Additional observations from a re-analysis of the deposited data

Results flagged for a closer look

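Between extracts, the change from 20 to 500 µg/mL differed by a test of the difference itself for 5 results. With Soshiho-tang minus Yijin-tang, the log2 difference was 1.043 for MT1E, 0.685 for MT1X and 0.531 for MT2A (edgeR adjusted p = 0.000191, 0.00436 and 0.0201), and -0.412 for SLC39A10 (edgeR adjusted p = 0.00446). The MT2A call was lost without 4 of the 12 libraries, each left out in turn (edgeR adjusted p = 0.0518 to 0.0592), and the other calls of this difference held. MT1E rose with Soshiho-tang (0.35) and fell by 0.69 on the log2 scale with Yijin-tang. The Soshiho-tang call of MT1E was lost without 4 of its 6 libraries (edgeR adjusted p = 0.066 to 0.191). SLC39A10 fell by 0.24 with Soshiho-tang and stood 0.17 higher with Yijin-tang, where it did not pass (edgeR adjusted p = 0.143). With Okbyeongpung-san minus Soshiho-tang, SLC30A1 differed by 0.399 (edgeR adjusted p = 0.042), a call lost without 7 of the 10 libraries, each left out in turn.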

How the results depend on the processing

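Of 1303 fold changes of members under an alternative setting, 1213 stayed on their side of the threshold, 57 lost the call and 33 gained it. No called value changed sign, whereas 70 of the 1213, all uncalled, did. Of 2272 values of other list genes 2132 stayed on their side, 97 lost the call and 43 gained it, and 108 uncalled values changed sign. Okbyeongpung-san at 500 against 20 µg/mL had 0 members changed as reported, 2 without a filter on low counts, 2 with the replicate block and 3 in the 27-library fit. Soshiho-tang at 20 µg/mL against vehicle gave 1 member, and 3 by library totals only, 3 without a filter and 2 by DESeq2. Okbyeongpung-san at 20 µg/mL against vehicle gave 0, and 2 without a filter, 1 by DESeq2 and 2 in the 27-library fit. Yijin-tang at 500 µg/mL gave 3 against vehicle and 1 with only these groups fitted, and 1 against 20 µg/mL and 2 without a filter. At 500 µg/mL, Soshiho-tang against Yijin-tang gave 2, and 4 without a filter. The Okbyeongpung-san minus Soshiho-tang difference gave 1, and 0 by library totals only, 2 without a filter and 0 with only these groups fitted. The cause was not tested.

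Leaving out each library in turn gave 3 to 5 members for Soshiho-tang at 500 µg/mL against vehicle, 2 to 4 against 20 µg/mL, and 1 to 3 for 20 µg/mL against vehicle. It gave 1 to 3 for Yijin-tang at 500 µg/mL against vehicle, 1 to 1 against 20 µg/mL, and 2 to 4 at 20 µg/mL against vehicle. For Okbyeongpung-san it gave 2 to 3 against vehicle and 0 to 1 against 20 µg/mL, 2 to 3 between Soshiho-tang and Yijin-tang at 500 µg/mL, 3 to 4 for their difference in concentration response and 0 to 1 for the Okbyeongpung-san minus Soshiho-tang difference; the remaining comparisons gave 0 throughout.

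Same-numbered libraries of Soshiho-tang and Yijin-tang share a library set, although their deviations from group means were hardly correlated. The replicate block for these extracts changed no member count by over 1.5 times. With it SLC30A1 passed at 500 µg/mL between these extracts (0.18, edgeR adjusted p = 0.0479). Counts of all genes also moved. Okbyeongpung-san, 20 µg/mL against vehicle, had 372 as reported, 587 by library totals only, 1442 without a filter, 728 by DESeq2, 797 with only these groups fitted, 40 with the replicate block, 2162 in the 27-library fit and 9 to 26 without a library. Okbyeongpung-san at 500 against 20 µg/mL gave 1716, and 2604 without a filter, 523 with only these groups fitted and 3082 in the 27-library fit. Yijin-tang at 500 against 20 µg/mL gave 951, and 308 with only these groups fitted. Soshiho-tang at 100 against 20 µg/mL gave 12, and 101 without a filter and 3 with only these groups fitted. Yijin-tang at 100 against 20 µg/mL gave 1, and 67 without a filter and 9 by DESeq2, and Okbyeongpung-san at 100 against 20 µg/mL 0, and 44 without a filter. The difference of Okbyeongpung-san minus Soshiho-tang gave 1292, and 575 with only these groups fitted. Single libraries moved these counts by over 1.5 times too: Yijin-tang at 500 against 20 µg/mL to 617 when replicate 1 of 500 µg/mL was left out, 519 for replicate 2 of 500 µg/mL, 505 for replicate 1 of 20 µg/mL and 530 for replicate 2 of 20 µg/mL; Yijin-tang at 20 µg/mL against vehicle (3338) to 2081 without vehicle replicate 3 and 2150 without extract replicate 3; Okbyeongpung-san at 500 µg/mL against vehicle (4113) to 2488, 2513 and 2228 without vehicle replicates 2 and 3 and extract replicate 2; and Okbyeongpung-san at 500 against 20 µg/mL to 838 and 630 without replicate 2 of each. The Okbyeongpung-san minus Soshiho-tang count fell to 801 and 837 without Okbyeongpung-san replicate 2 at 500 and 20 µg/mL, and 859 without Soshiho-tang replicate 1 at 20 µg/mL. At this depth MT1M and MT1G could not be tested, and MT1F had an SE of 0.499 for Soshiho-tang and 0.625 for Okbyeongpung-san, both 500 µg/mL against vehicle.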
